A study of Mus musculus with 12 samples.

Results

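Steroid hormones are made from cholesterol by a short chain of proteins, and the report follows 8 genes of that chain through mouse development. Star carries cholesterol to the inner mitochondrial membrane. Cyp11a1 cleaves the cholesterol side chain there to give pregnenolone, with electrons passed on by ferredoxin (Fdx1) from ferredoxin reductase (Fdxr). Hsd3b1 turns pregnenolone into progesterone, Cyp17a1 leads towards androgens, Cyp19a1 (aromatase) makes oestrogens and Hsd17b1 reduces oestrone to oestradiol. In the mouse these genes are known chiefly from the adrenal cortex, testis, ovary and placenta.

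The 8 genes were taken by symbol from 21156 genes measured on Clariom S Mouse, an array with probes in exons of well-characterised genes, and each was represented by 1 probe set with 1 symbol. Cyp11a1 and Hsd3b1 head the group because they were chosen on their high signal at the 2-cell stage, so every comparison with 2-cell embryos is given for the 8 genes as a description, without a test. RNA came from whole mouse embryos after superovulation and natural mating, with the plug day counted as E0.5. The groups were pronuclear embryos (E0.5, 2 arrays), 2-cell embryos (E1.5, 2 arrays), morulae (E2.5, 2 arrays), E10.5 embryos (3 arrays) and E16.5 embryos (3 arrays). The labels describe the early samples as pools, with no number of embryos, and the later ones as individuals, 1 embryo per array. The labels name no strain, genotype or sex for any stage, and no treatment set the groups apart. Pronuclear embryos were washed and incubated in KSOM, a culture medium. Every array was made from 2 ng of total RNA, so a signal is relative to total RNA and not to an embryo.

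All values are the deposited signals on the log2 scale, and a difference of 1 is a doubling of signal, not calibrated to RNA amount. Array medians ran from 6.19 to 6.62. Correlations across genes were 0.978 to 0.992 between arrays of a stage and 0.654 to 0.888 between stages. All 25 stage markers examined (such as Gdf9, Zscan4c, Nanog, Hba-x and Krt10) had their highest stage mean at the stage they mark. These markers were chosen with earlier results of these data known, and Lor was dim even at its stage, E16.5 (mean 4.28). As a reference for low signal, 1404 olfactory and vomeronasal receptor genes were used, and whether any of them was transcribed was not tested. The 95th percentile of these receptor genes was 5.97 in pronuclear embryos, 6.50 at the 2-cell stage, 6.17 for morulae, and then 5.48 at E10.5 and 5.35 at E16.5. A signal at or below that level is called within the receptor range, which does not show that a transcript was absent. The level was highest at the 2-cell stage, so a 2-cell signal had to be higher than at other stages to exceed it. In whole embryos, fewer cells of a type and less RNA per cell cannot be told apart.

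RefSeq promoter entries (GRCm38.p6, 250 bases before to 50 after an annotated start) were found for 5 of the 8 genes, Cyp11a1, Hsd3b1, Cyp19a1, Fdx1 and Fdxr, with 8 promoters in all. For the 2 genes with the highest 2-cell signal, 1 promoter each is shown, on the strand of the gene. Another Cyp11a1 promoter (chr9:57997774-57998073), with its start 16989 bases from the array's annotated start, is not shown. A match to AGATAA, a form of the GATA motif, on either strand is in capitals.
Cyp11a1, chr9:58014702-58015001, plus strand: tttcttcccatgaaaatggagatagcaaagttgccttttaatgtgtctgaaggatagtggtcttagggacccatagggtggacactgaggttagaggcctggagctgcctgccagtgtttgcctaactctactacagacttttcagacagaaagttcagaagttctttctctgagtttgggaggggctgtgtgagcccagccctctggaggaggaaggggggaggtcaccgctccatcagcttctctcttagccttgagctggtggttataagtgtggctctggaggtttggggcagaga
Hsd3b1, chr3:98859745-98860044, minus strand: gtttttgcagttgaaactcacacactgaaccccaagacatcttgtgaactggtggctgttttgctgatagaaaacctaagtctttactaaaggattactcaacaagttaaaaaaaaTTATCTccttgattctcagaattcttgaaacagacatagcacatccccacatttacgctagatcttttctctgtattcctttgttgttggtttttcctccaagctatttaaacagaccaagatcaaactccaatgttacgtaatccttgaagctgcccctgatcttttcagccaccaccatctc
The RefSeq start of the Cyp11a1 promoter shown lay 61 bases from the start annotated for the array's transcript, and that of Hsd3b1 at the same base. The Hsd3b1 window held 1 match to AGATAA, on the opposite strand as TTATCT, beginning 134 bases before the start. The Cyp11a1 window held no match to this exact string. Of 32851 RefSeq promoters of 300 bases, 11.2% held AGATAA on either strand. The Nr5a motif CAAGGNCA was found in neither window shown and in 1 of the 8 promoters, one of Cyp19a1, against 6.71% of all promoters. Its variant AAGGTCA, which can share letters with CAAGGNCA, was found in 0 of the 8, against 4.72% of all. TATAAA was found in 2 of the 8, both of Cyp19a1, against 13.6% of all. A match is a string of letters, and no binding was measured. Other forms of the GATA and Nr5a motifs were not searched, so a window without a match may still hold such a site.

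Cyp11a1 lies on chromosome 9 (mm10, 58015013 to 58027023, plus strand, the span of the annotated transcript). Its signal was 13.55 and 13.40 in the pronuclear pools and 15.27 and 15.46 in the 2-cell pools. In morulae it was 7.56 and 8.66. The embryos at E10.5 gave 6.23, 6.33 and 5.70, and those at E16.5 gave 7.27, 6.54 and 6.85. The gene was thus highest at the 2-cell stage and next in pronuclear embryos, and no neighbouring stages in the order 2-cell, pronuclear, morula, E16.5, E10.5 overlapped. All arrays of every stage lay above the receptor range, by least at E10.5. Its stage means spanned 9.27 log2 units.

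Hsd3b1 lies on chromosome 3 (mm10, 98852194 to 98859794, minus strand). Pronuclear pools gave 13.61 and 13.34, 2-cell pools 15.18 and 15.07, and morulae 10.45 and 10.68. The E10.5 embryos gave 5.66, 6.15 and 6.01 and the E16.5 embryos 11.90, 11.31 and 11.28. Like Cyp11a1 it was highest at the 2-cell stage and lowest at E10.5, but its E16.5 arrays lay above its morula arrays. Its order was 2-cell, pronuclear, E16.5, morula, E10.5, with no overlap between neighbours and a span of 9.18 between stage means.

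The electron donors Fdx1 and Fdxr had different profiles. Fdx1 (chromosome 9, mm10, 51943027 to 51963533, minus strand) gave 11.46 and 11.07 in pronuclear embryos, 11.94 and 12.27 at the 2-cell stage and 11.73 and 11.13 in morulae. It gave 7.71, 8.13 and 8.66 at E10.5 and 10.35, 9.70 and 10.09 at E16.5. Fdx1 was therefore above the receptor range on every array, with pronuclear and morula arrays that overlapped. Fdxr (chromosome 11, mm10, 115268024 to 115277050, minus strand) was dim, with 6.11 and 6.04, then 6.55 and 5.74, then 6.13 and 5.34 over the 3 early stages. At E10.5 it gave 4.30, 4.59 and 4.42 and at E16.5 3.72, 4.45 and 3.88. Only the pronuclear stage had all its Fdxr arrays above the receptor range, and neighbouring early stages overlapped.

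Star, the cholesterol carrier ahead of Cyp11a1, lies on chromosome 8 (mm10, 25808474 to 25815982, plus strand). It gave 5.66 on both pronuclear arrays, 6.10 and 6.52 at the 2-cell stage and 4.26 and 4.31 in morulae. The later embryos gave 4.57, 4.03 and 4.28 at E10.5 and 5.02, 4.26 and 4.84 at E16.5. Star was highest at the 2-cell stage, as Cyp11a1 was, but its mean lay within the receptor range at all 5 stages, and 1 of 12 arrays, a 2-cell array, exceeded that range. Its arrays at morula, E10.5 and E16.5 overlapped.

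Of the enzymes of androgen and oestrogen synthesis, Hsd17b1 was the one with all arrays of any stage above the receptor range. Cyp17a1 (chromosome 19, mm10, 46667165 to 46673000, minus strand) gave 4.16 and 5.02 in pronuclear embryos, 5.78 and 6.81 at the 2-cell stage and 5.71 and 6.13 in morulae. Its E10.5 embryos gave 3.98, 3.46 and 3.79, and its E16.5 embryos 8.14, 4.50 and 7.68. Embryos 1 and 3 at E16.5 were its highest arrays, while embryo 2 lay within the receptor range. Hsd17b1 (chromosome 11, mm10, 101078411 to 101080527, plus strand) gave 7.40 and 6.996, then 5.89 and 6.59, then 6.71 and 7.57 over the early stages. Its later values were 4.70, 4.87 and 4.77 at E10.5 and 4.85, 5.63 and 4.34 at E16.5. Hsd17b1 was above the receptor range on both pronuclear and both morula arrays, and it was the 1 of the 8 genes with a lower mean at the 2-cell than at the pronuclear stage. Cyp19a1 (chromosome 9, mm10, 54165937 to 54268164, minus strand) ran from 3.32 to 4.57 over the 12 arrays. It was within the receptor range on all of them, and all neighbours in its order overlapped. In the authors' deposited table the F test over the stages has a false discovery rate of 0.684 for Cyp19a1 and at most 0.00491 for the other 7 genes. The same authors' deposited table flags Cyp17a1 at E10.5 and Cyp19a1 at E16.5 as F in its column for expressed genes, by a rule it does not state, and the other 6 genes as T at all 5 stages.

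**Figure D1:**
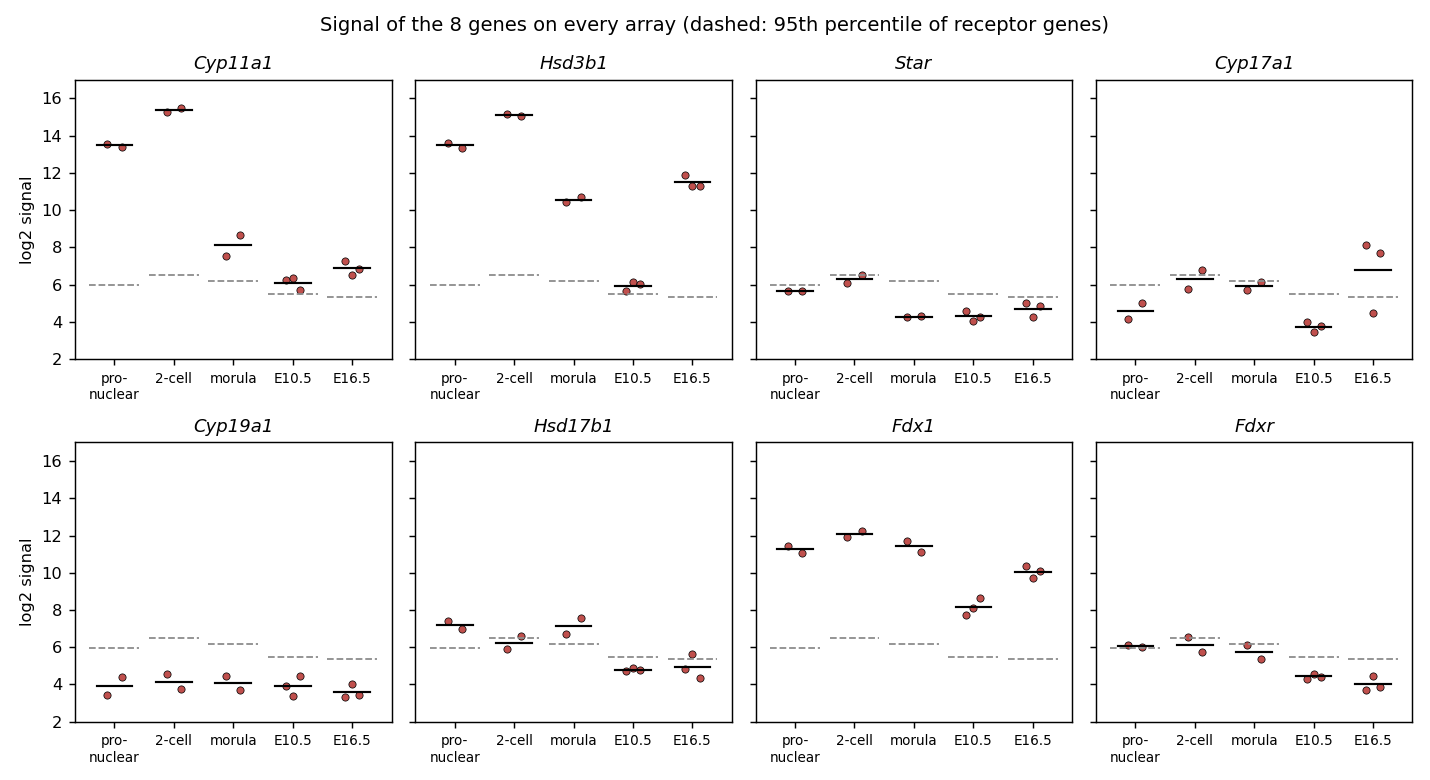
Log2 signal of the 8 genes (y axis) on each array (points) by stage (x axis), with the stage mean as a bar and the 95th percentile of receptor genes as a dashed line. Cyp11a1 and Hsd3b1 reached 15.46 and 15.18 at the 2-cell stage, Fdx1 stayed above the dashed line throughout, and Cyp19a1 stayed below it.

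Between the pronuclear and the 2-cell stage, means differed by 1.89 ± 0.37 (SE of the fit) for Cyp11a1, from 13.47 ± 0.11 (SD, n = 2) to 15.36 ± 0.13 (SD, n = 2). For Hsd3b1 the difference was 1.65 ± 0.30, from 13.48 ± 0.19 to 15.13 ± 0.08 (SD, n = 2 each). Among the other genes of the group it was 1.70 ± 0.82 for Cyp17a1, 0.83 ± 0.36 for Fdx1 and 0.65 ± 0.32 for Star. It was 0.24 ± 0.44 for Cyp19a1 and 0.07 ± 0.36 for Fdxr. Hsd17b1 was lower by 0.96 ± 0.41. The arrays of the 2 stages overlapped for Cyp19a1 and Fdxr and for no other gene of the 8. The median difference of all genes was -0.03. The shares of all genes with a higher mean or without overlap were not computed, so nothing is read from these counts. In all, 7 of 8 genes had a higher mean at the 2-cell stage. The count was 5 without 2-cell replicate 1, where Fdxr and Cyp19a1 turned lower (-0.33 and -0.17). It was 6 without pronuclear replicate 1, where Cyp19a1 turned (-0.26), and 6 centred on receptor genes, where Fdxr turned (-0.10). Of all genes, 35.6% passed the test in this comparison, 15.6% upward, and nothing is read from the 8 against that share since the group was chosen with the 2-cell signal in view.

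From the 2-cell stage to the morula, Cyp11a1 was lower by 7.25 ± 0.37 and Hsd3b1 by 4.56 ± 0.30. Star was lower by 2.03 ± 0.32 and Fdx1 by 0.67 ± 0.36, while Hsd17b1 was higher by 0.90 ± 0.41. Of all genes 40.0% passed the test in this comparison, 20.0% downward.

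The morula and pronuclear arrays were compared to ask how far the genes had moved over the preimplantation period. This comparison does not use the 2-cell signal, but the group was chosen with earlier results of all stages known. Cyp11a1, Hsd3b1 and Star fell. With limma's moderated test and Benjamini-Hochberg adjustment over all genes, Cyp11a1 fell by 5.36 ± 0.37 (adjusted p = 9.6e-09), from 13.47 to 8.11 ± 0.78 (SD, n = 2). Hsd3b1 fell by 2.91 ± 0.30 (limma adjusted p = 8.7e-07), from 13.48 to 10.56 ± 0.16 (SD, n = 2), and remained well above the receptor range. Star fell by 1.38 ± 0.32 (limma adjusted p = 0.00187), though both of its means lay within the receptor range. The groups overlapped for none of these 3 genes, and the share of all genes without overlap was not computed. The other 5 did not pass, with differences from -0.34 for Fdxr to 1.33 ± 0.82 for Cyp17a1 (limma adjusted p = 0.201). The count of 3 of 8 that fell stands against 23.9% of all genes that fell, 23.8% that rose and 47.7% called in either direction, and the median difference was -0.20 for the 8 genes against 0.15 for all genes. Fitted with the early arrays alone, Cyp17a1 also passed, upward (limma adjusted p = 0.0409). It passed too with the 2 stages alone and without E16.5 embryo 2 (limma adjusted p = 0.0249 and 0.0108).

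From the morula to E10.5, 6 of the 8 genes fell and 0 rose. Among all genes 26.6% fell, 25.2% rose and 51.9% were called in either direction. The largest fall was that of Hsd3b1, by 4.62 ± 0.28 (limma adjusted p = 1.86e-09), to 5.94 ± 0.25 (SD, n = 3). Fdx1 fell by 3.26 ± 0.33 (limma adjusted p = 5.47e-07), from 11.43 ± 0.43 (SD, n = 2) to 8.16 ± 0.47 (SD, n = 3). Cyp11a1 fell by 2.02 ± 0.34 (limma adjusted p = 0.00012). Hsd17b1 fell by 2.36 ± 0.37 (limma adjusted p = 6.64e-05), from signals above the receptor range in morulae to signals within it. Cyp17a1 and Fdxr fell by 2.18 ± 0.75 and 1.30 ± 0.33 (limma adjusted p = 0.0231 and 0.00355), but both genes had means within the receptor range at either stage. Star and Cyp19a1 did not pass, with differences of 0.01 and -0.16. The median difference was -2.10 for the 8 genes and -0.16 for all genes.

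The fall of Cyp17a1 was no longer called with either morula array left out, with E10.5 embryo 2 left out or with arrays centred on the receptor genes (limma adjusted p from 0.0624 to 0.118). Without morula replicate 1 the fall of Fdxr was also lost (limma adjusted p = 0.0723), which left 4 genes called. Other settings gave the fall of Cyp17a1 a lower p-value. The limma adjusted p was 7.36e-05 with the 2 stages fitted alone and 0.000135 without E16.5 embryo 2. The array names carry 1 date for the 3 early stages and another for the 2 late ones, without saying what was done then, and the early samples were pools. Date, pooling and stage therefore cannot be told apart between the morula and E10.5.

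From E10.5 to E16.5, both dated alike and both of single embryos, Hsd3b1, Cyp17a1 and Fdx1 rose and 0 genes of the group fell, against 17.5% of all genes that rose and 37.8% called in either direction. Hsd3b1 rose by 5.55 ± 0.25 (limma adjusted p = 1.17e-10), to 11.50 ± 0.35 (SD, n = 3), and all 3 E16.5 embryos lay above all 3 E10.5 embryos. Fdx1 rose by 1.88 ± 0.29 (limma adjusted p = 9.84e-05), to 10.04 ± 0.33 (SD, n = 3). Cyp17a1 rose by 3.03 ± 0.67 (limma adjusted p = 0.00187), from 3.74 ± 0.26 to 6.77 ± 1.98 (SD, n = 3 each). The median difference was 0.61 for the 8 genes and -0.08 for all genes.

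Cyp11a1 was higher at E16.5 by 0.80 ± 0.30 without passing (limma adjusted p = 0.0515). Its 3 E16.5 embryos lay above its 3 E10.5 embryos, by 0.21 between the nearest arrays, and 10 of 25 alternative settings called it (adjusted p from 0.00294 to 0.228 over all settings). Star differed by 0.41 ± 0.26 (limma adjusted p = 0.241), Hsd17b1 by 0.16, Cyp19a1 by -0.33 and Fdxr by -0.42. None of these 4 passed.

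**Figure D2:**
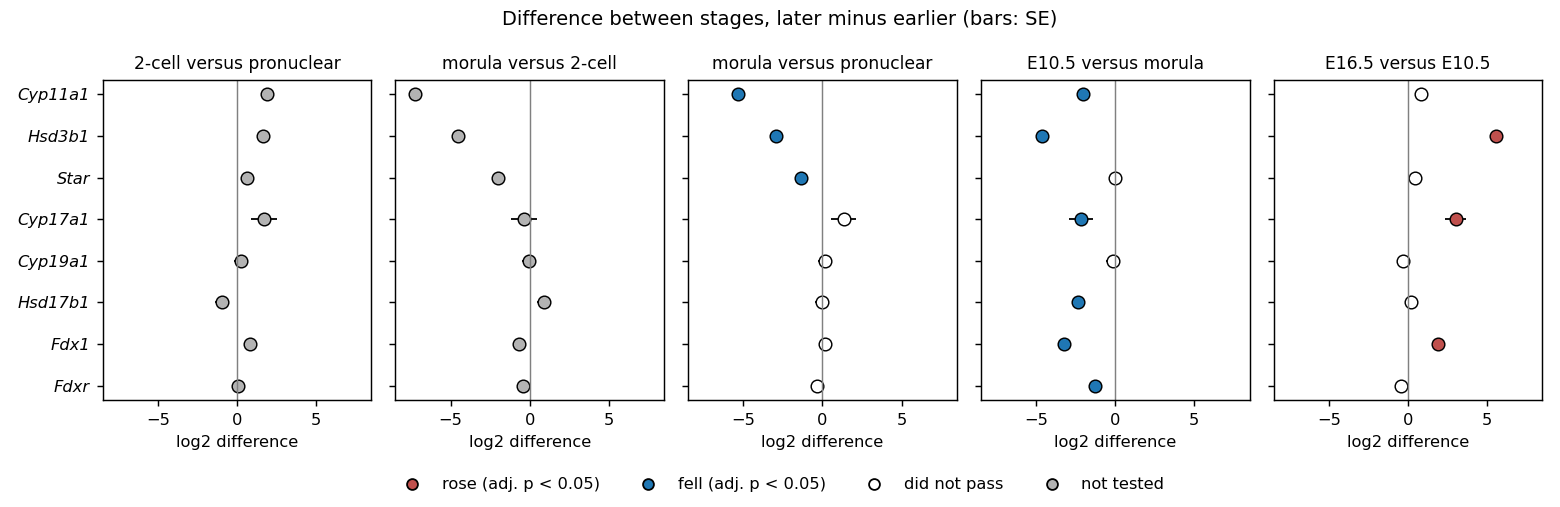
Differences in mean log2 signal, later minus earlier stage (x axis), of the 8 genes (rows) in 5 comparisons (panels), with the standard error of the fit as bars. Gray points were not tested; among the tested ones, 3 genes fell from pronuclear to morula, 6 fell from morula to E10.5 and 3 rose from E10.5 to E16.5.

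The Cyp17a1 signal differed between embryos at E16.5, with 8.14 and 7.68 in embryos 1 and 3 and 4.50 in embryo 2. Y-linked genes, a list chosen after the values were seen, divided the same 3 embryos in the same way. Eif2s3y gave 10.62, 2.67 and 10.24 in embryos 1, 2 and 3, and Uty gave 10.25, 4.14 and 10.17. Kdm5d gave 8.25, 2.83 and 8.57, and Ddx3y gave 11.06, 5.31 and 11.03. All 4 genes were thus high in the embryos with high Cyp17a1 and low in the other. At E10.5 embryo 3 alone had high Y-linked signals (Eif2s3y 10.18 and Uty 10.94), and its Cyp17a1 signal of 3.79 lay between those of the other embryos. With 1 embryo without Y-linked signal at E16.5, a relation between the 2 was not tested. Left without embryo 2, the rise of Cyp17a1 was 4.17 (limma adjusted p = 8.16e-07). It was 2.35 without embryo 1 and 2.58 without embryo 3 (limma adjusted p = 0.0137 in each case).

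**Figure D3:**
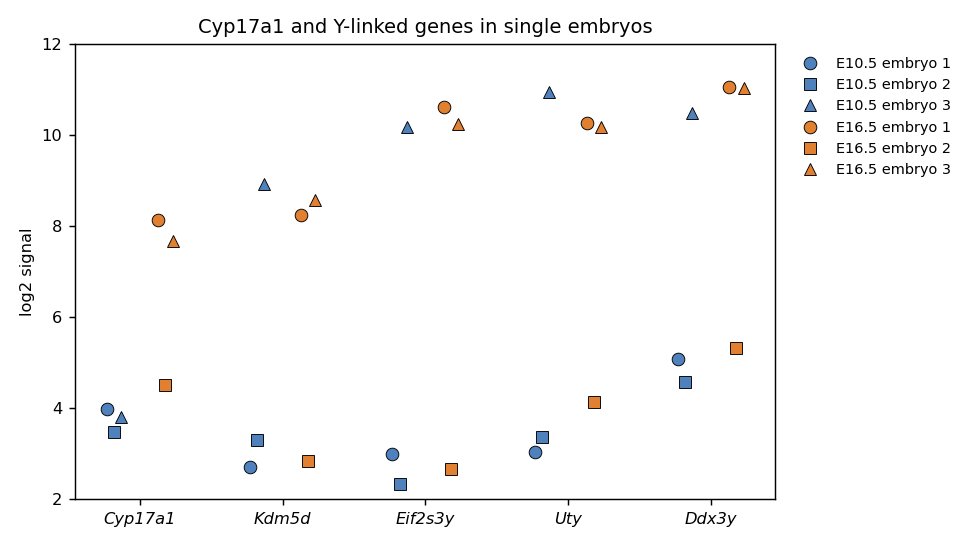
Log2 signal (y axis) of Cyp17a1 and 4 Y-linked genes (x axis) in each of the 3 E10.5 and 3 E16.5 embryos (colours for stages, symbols for embryos 1 to 3). At E16.5, embryo 2 had the lowest value of all 5 genes; at E10.5, embryo 3 was high in the Y-linked genes and at 3.79 in Cyp17a1.

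Hsd3b1 belongs to a family of similar genes, 5 others of which were measured. By stage means Hsd3b5 shared the highest stage, 2-cell, and the lowest, E10.5, with Hsd3b1, and Hsd3b2 was also highest at the 2-cell stage, while Hsd3b3, Hsd3b6 and Hsd3b7 were highest at other stages. Hsd3b6, the form known from mouse trophoblast giant cells, gave 7.98 and 7.68 in pronuclear embryos, 5.65 and 5.58 at the 2-cell stage, 5.44 and 4.66 in morulae. Its E10.5 embryos gave 9.86, 10.14 and 9.93 and its E16.5 embryos 6.98, 6.20 and 6.01. It was lowest in morulae and highest at E10.5, the stage where Hsd3b1 was lowest. Hsd3b6 rose by 4.93 ± 0.32 from morula to E10.5 (limma adjusted p = 4.87e-09) and fell by 3.58 ± 0.29 to E16.5 (limma adjusted p = 1.09e-07). Hsd3b3 gave 10.13, 9.79 and 9.54 at E16.5 against 6.34, 6.07 and 5.93 at E10.5. Like Hsd3b1, it rose between those stages, by 3.71 ± 0.33 (limma adjusted p = 2.97e-07).

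Hsd3b7, a more distant relative that acts in bile acid synthesis, fell from 10.72 ± 0.28 in pronuclear embryos to 7.30 ± 0.23 at the 2-cell stage (SD, n = 2 each), with a difference of -3.42 ± 0.28 (limma adjusted p = 1.61e-07). Hsd3b5 gave 7.96 and 7.34 in pronuclear embryos, 9.44 and 8.14 at the 2-cell stage and 8.09 and 6.86 in morulae, and its mean was 6.45 at E10.5. Its 2-cell arrays lay above those of both early neighbours, and its 2-cell mean of 8.79 was higher than the pronuclear one by 1.14 ± 0.45 without passing (limma adjusted p = 0.0615). It fell by 1.32 ± 0.45 to the morula (limma adjusted p = 0.0289) and by 1.03 ± 0.41 to E10.5 (limma adjusted p = 0.047), and rose by 1.55 ± 0.37 from E10.5 to E16.5 (limma adjusted p = 0.00321). Hsd3b2 passed in none of the 5 comparisons, with stage means from 6.50 at E16.5 to 7.46 at the 2-cell stage. Its 2-cell arrays (8.31 and 6.60) spanned both its pronuclear (7.91 and 6.80) and both its morula arrays (7.32 and 7.28). Whether probes of one Hsd3b gene also bind transcripts of another was not tested.

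**Figure D4:**
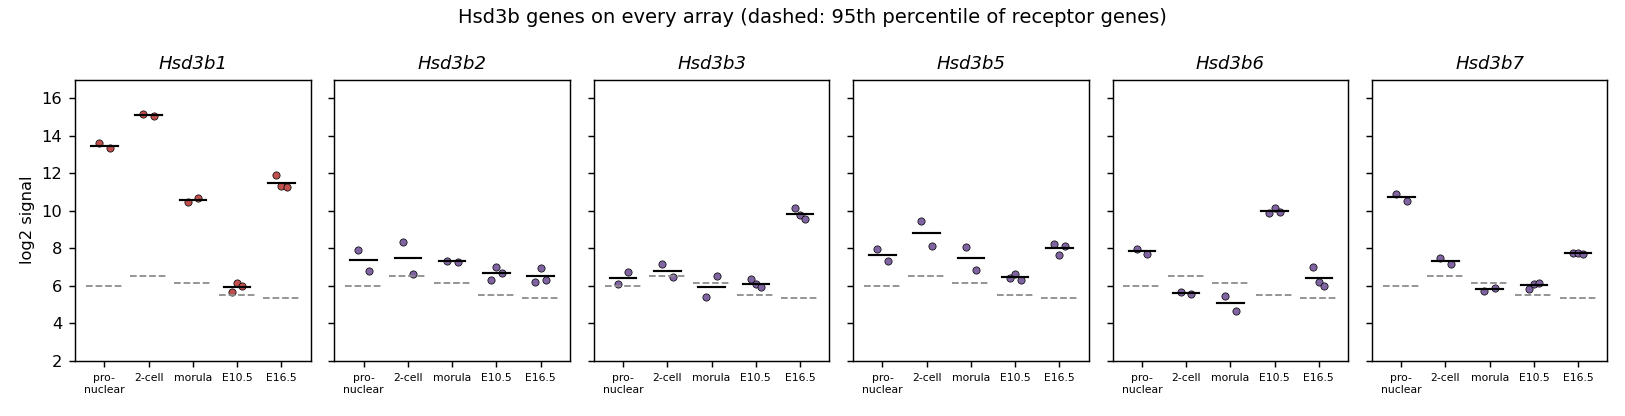
Log2 signal (y axis) of Hsd3b1 and 5 other Hsd3b genes on each array (points) by stage (x axis), with stage means as bars and the 95th percentile of receptor genes dashed. By their means Hsd3b1, Hsd3b5 (8.79) and Hsd3b2 (7.46) were highest at the 2-cell stage, Hsd3b7 in pronuclear embryos, Hsd3b6 at E10.5 and Hsd3b3 at E16.5.

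Other genes of steroid metabolism were drawn from 7 lists with 106 measured genes, none of them among the 8. From the pronuclear to the 2-cell stage 13 rose, 30 fell and 63 did not pass, against 15.6% of all genes that rose and 20.0% that fell. From there to the morula 16 rose, 26 fell and 64 did not pass, against 20.0% of all genes in each direction. From the morula to E10.5 26 rose and 20 fell, against 25.2% and 26.6% of all genes, and from E10.5 to E16.5 36 rose and 13 fell, against 17.5% and 20.3% of all genes. The median difference of the 106 genes in that last comparison was 0.29, against -0.08 for all genes.

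Among 22 further enzymes of steroid synthesis, 4 rose and 6 fell from the pronuclear to the 2-cell stage, where 15.6% of all genes rose and 20.0% fell. Hsd17b13, a liver lipid droplet protein, rose by 2.16 ± 0.42 (limma adjusted p = 0.000788), to 12.68 and 12.57 at the 2-cell stage, and fell by 6.09 ± 0.42 to the morula (limma adjusted p = 2.08e-08). It rose again by 6.45 ± 0.35 from E10.5 to E16.5 (limma adjusted p = 1.01e-09), to 13.31, 13.16 and 12.52. Hsd17b6 rose by 3.02 ± 0.42 from pronuclear to 2-cell embryos (limma adjusted p = 3.71e-05) within the receptor range. The 5α-reductase Srd5a1, which makes dihydrotestosterone, rose by 1.34 ± 0.42 to the 2-cell stage and by 2.80 ± 0.38 from the morula to E10.5 (limma adjusted p = 0.0197 and 1.45e-05). In between, its mean was lower in morulae (5.64) than at the 2-cell stage (7.57). From E10.5 to E16.5 Srd5a1 fell by 0.99 ± 0.34 (limma adjusted p = 0.0316). Among the 6 enzymes that fell from the pronuclear to the 2-cell stage were Hsd3b7, Hsd3b6 and Srd5a3. The mean of Hsd3b6 went from 7.83 to 5.61 (limma adjusted p = 0.000131). For Srd5a3 the difference was -2.15 ± 0.29 (limma adjusted p = 2.41e-05). From the 2-cell stage to the morula it was -3.07 ± 0.29 (limma adjusted p = 4.76e-07). Cyp11b1, Cyp11b2 and Cyp21a1, the enzymes of corticosterone and aldosterone synthesis, had stage means within the receptor range at all 5 stages. From E10.5 to E16.5, 7 of the 22 enzymes rose and 3 fell (all genes 17.5% and 20.3%).

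Akr1c18, which inactivates progesterone by reducing it to 20α-hydroxyprogesterone, was high at both stages where Cyp11a1 was highest. It gave 14.35 and 14.00 in pronuclear embryos, 14.23 and 14.25 at the 2-cell stage and 6.54 and 6.04 in morulae. The values at E10.5 were 3.94, 4.16 and 3.52, and those at E16.5 were 6.95, 5.98 and 6.37. Its pronuclear and 2-cell arrays overlapped, with a difference of 0.07 ± 0.35 (limma adjusted p = 0.915). It fell by 7.95 ± 0.35 to the morula (limma adjusted p = 1.85e-10). Of the 12 genes of steroid inactivation and conjugation, 3 fell and 2 rose in that comparison, beside 20.0% of all genes in each direction. Hsd11b1, which regenerates active glucocorticoid, rose by 4.69 ± 0.31 from E10.5 to E16.5 (limma adjusted p = 1.29e-08). Hsd11b2, which inactivates glucocorticoid, fell by 2.97 ± 0.24 between the same stages, from a mean of 7.87 to 4.91.

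Redox partners of the microsomal enzymes changed at several steps. Por, the electron donor of Cyp17a1 and Cyp19a1, fell by 1.35 ± 0.34 to the 2-cell stage (limma adjusted p = 0.00579), rose by 2.25 ± 0.34 to the morula (limma adjusted p = 7.34e-05) and fell by 1.73 ± 0.31 to E10.5 (limma adjusted p = 0.000252). Cyb5a, a cofactor of Cyp17a1, rose by 1.63 ± 0.23 from E10.5 to E16.5 (limma adjusted p = 3.44e-05). Of the 6 measured partners 0 rose and 3 fell from the pronuclear to the 2-cell stage (all genes 15.6% and 20.0%).

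Genes of cholesterol supply were mixed. Of 19 measured, 3 rose and 7 fell from the pronuclear to the 2-cell stage (all genes 15.6% and 20.0%), and 4 rose and 7 fell from there to the morula (all genes 20.0% each way). From E10.5 to E16.5, 9 rose and 2 fell (all genes 17.5% and 20.3%). Scarb1, the receptor for high-density lipoprotein cholesterol, was 11.04 and 11.19 in pronuclear and 11.59 and 11.13 in 2-cell embryos and fell by 2.75 ± 0.36 to the morula (limma adjusted p = 1.76e-05). Soat1, which esterifies cholesterol, fell by 2.37 ± 0.38 to the 2-cell stage (limma adjusted p = 0.000131). Stard3, a relative of Star on endosomes, fell by 1.77 ± 0.39 to the 2-cell stage and rose by 2.62 ± 0.39 to the morula (limma adjusted p = 0.00216 and 6.02e-05), the opposite course to that of Cyp11a1. At E16.5 Lipe, the hormone-sensitive lipase, was higher by 4.24 ± 0.27 than at E10.5 and Tspo, an outer mitochondrial membrane protein, by 2.67 ± 0.33 (limma adjusted p = 8.97e-09 and 1.02e-05).

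Transcription factors that drive Cyp11a1 and Star in gonads and adrenals differed in their profiles. Nr5a1 (SF-1) was dim, with stage means from 6.30 in pronuclear embryos to 3.83 at E16.5, and above the receptor range in pronuclear embryos alone among the stages. Its relative Nr5a2 (LRH-1), known from granulosa cells and from early embryos, gave 11.75 and 12.36 in pronuclear embryos, 12.79 and 13.11 at the 2-cell stage and 13.67 and 13.68 in morulae. Nr5a2 did not share the low morula signal of Cyp11a1, and it fell by 8.69 ± 0.51 from the morula to E10.5 (limma adjusted p = 1.44e-09). Gata4 gave 9.22 and 10.12, then 11.85 and 12.58, then 7.01 and 6.80 over the early stages, an order shared with Cyp11a1. It rose by 2.55 ± 0.37 to the 2-cell stage and fell by 5.31 ± 0.37 to the morula (limma adjusted p = 5.35e-05 and 2.07e-08). Of 20 regulators measured, 4 rose and 5 fell to the 2-cell stage, beside 15.6% and 20.0% of all genes.

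Receptors of the hormones that act on steroid-making cells differed in level. Lhcgr and Fshr, the gonadotropin receptors, had stage means within the receptor range at all 5 stages, and Mc2r, the corticotropin receptor, exceeded it at E16.5 alone (mean 5.61), as did Ptgfr, a prostaglandin receptor (mean 5.97). Prlr, the prolactin receptor, was above the range on both pronuclear arrays (7.03 and 6.91) and both 2-cell arrays (7.27 and 6.85). It fell by 2.23 ± 0.32 to the morula (limma adjusted p = 3.88e-05). Mrap, the partner of Mc2r, gave 9.11 and 9.62 in pronuclear embryos, 10.13 and 10.86 at the 2-cell stage and 6.25 and 7.02 in morulae. Mrap rose by 1.13 ± 0.38 to the 2-cell stage (limma adjusted p = 0.0301), fell by 3.86 ± 0.38 to the morula and rose by 2.58 ± 0.31 from E10.5 to E16.5 (limma adjusted p = 8.77e-07 and 8.25e-06). Of 15 receptors for steroids, 0 rose and 1 fell from the pronuclear to the 2-cell stage, beside 15.6% and 20.0% of all genes. Pgr, for progesterone, had stage means within the receptor range at all 5 stages, and Esr1, for oestrogen, at 4, with a mean at its edge in pronuclear embryos (5.97). Nr3c1, the glucocorticoid receptor, rose by 2.25 ± 0.28 from E10.5 to E16.5 (limma adjusted p = 1.14e-05).

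Markers of steroidogenic cells outside the embryo were read beside the early signals. The 13 markers of granulosa and cumulus cells other than Cyp19a1 had an array mean of 7.10 to 7.16 in pronuclear embryos, 6.27 to 6.55 at the 2-cell stage and 5.44 to 5.61 in morulae. From the pronuclear to the 2-cell stage, 1 of the 13 rose, 6 fell and 6 did not pass, beside 15.6% of all genes that rose and 20.0% that fell. The marker that rose was Amhr2, the receptor of anti-Müllerian hormone, by 4.46 ± 0.34 (limma adjusted p = 9e-08). Among the markers that fell were Inha for an inhibin subunit (fell by 3.65 ± 0.33), Ptgs2 for a prostaglandin synthase (fell by 2.63 ± 0.38) and Tnfaip6 for a cumulus matrix protein (fell by 1.79 ± 0.33) (limma adjusted p = 5e-07, 5.58e-05 and 0.000499). The stage means of Foxl2, Fshr and Amh, also among these markers, were within the receptor range at every stage. Fshr exceeded that range on 1 pronuclear array (6.07).

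The 5 luteal and theca markers other than Cyp17a1 had an array mean of 8.53 to 8.55 in pronuclear embryos, 8.57 to 8.75 at the 2-cell stage and 5.22 to 5.31 in morulae. From the pronuclear to the 2-cell stage 1 of the 5 rose, 1 fell and 3 did not pass (all genes 15.6% up and 20.0% down). From there to the morula 0 rose, 3 fell and 2 did not pass (all genes 20.0% each way). Akr1c18 and Sfrp4, a secreted Wnt inhibitor, were the brightest of them, and Lhcgr was within the receptor range throughout. Ptgfr had means of 5.59, 4.57 and 4.01 over the early stages, all within that range. Sfrp4 gave 11.13 and 11.90, 13.42 and 13.45, and 7.89 and 7.41 over the early stages, the same order as Cyp11a1. The part of carried-over ovarian cells or RNA in the early signals was not tested.

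Placental and decidual markers (10 genes) averaged 5.88 to 5.89 per array in pronuclear embryos, 5.60 to 5.87 at the 2-cell stage and 5.01 to 5.32 in morulae. Of the 10, the means of 4 lay above the receptor range in pronuclear embryos, of 2 at the 2-cell stage and of 2 in morulae. Prl8a2, a decidual prolactin, had means of 8.94 in pronuclear and 10.33 in 2-cell embryos and 3.74 in morulae. Psg17, a pregnancy-specific glycoprotein, had means of 9.17, 7.80 and 3.93 over the same stages. Prl3b1, a placental lactogen, was above the range in morulae instead, with a mean of 8.42. At the late stages, 8 adrenal cortex markers other than Star had array means of 4.87 to 4.96 at E10.5 and 5.26 to 5.53 at E16.5, where 2 rose and 1 fell. The 6 measured markers of fetal Leydig and Sertoli cells other than Cyp17a1 averaged 5.49 to 5.62 at E10.5 and 4.88 to 5.11 at E16.5, with 0 that rose and 2 that fell. Of all genes, 17.5% rose and 20.3% fell between these stages. At E16.5 the means of 2 of the 6 lay above the receptor range, Sox9 (8.45) and Cyp26b1 (5.38), and those of Hsd17b3, Lhcgr, Amh and Dhh lay within it.

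**Figure D5:**
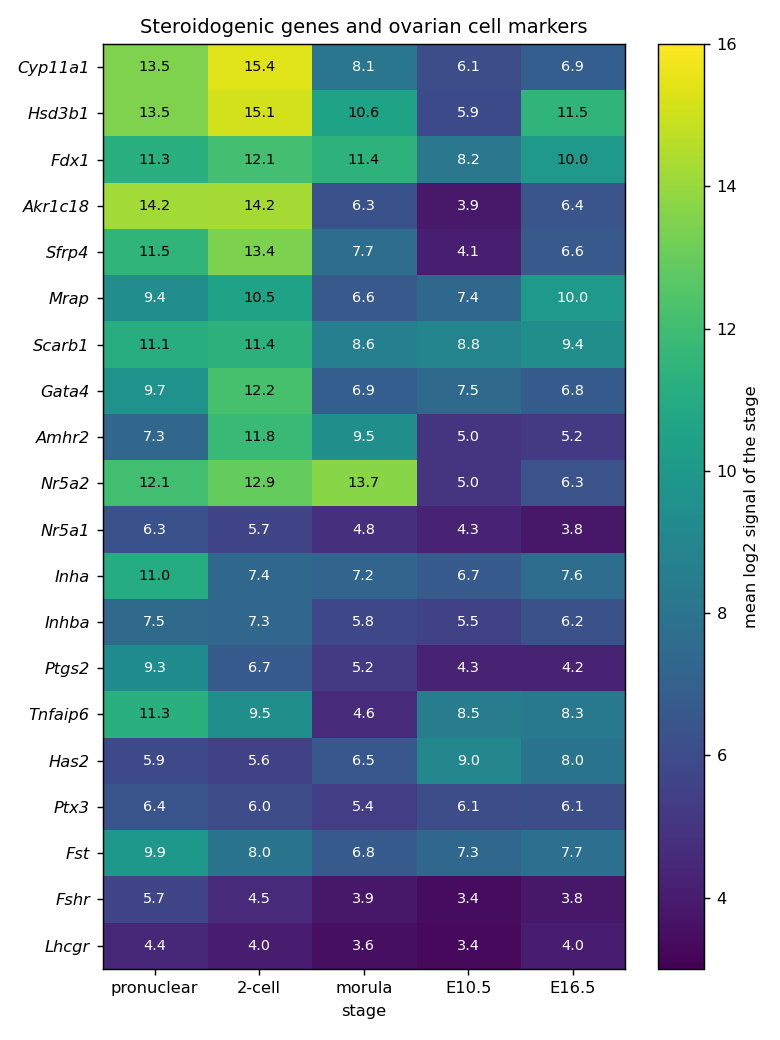
Mean log2 signal of each stage (columns) for 3 of the 8 genes and for pathway genes and ovarian cell markers shown by their interest beside Cyp11a1 (rows), with colour and printed value on the same scale. Among the 3 early stages, Cyp11a1, Sfrp4, Mrap, Gata4 and Amhr2 were highest at the 2-cell stage. Inha, Ptgs2 and Tnfaip6 were highest in pronuclear embryos.

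The profiles most like those of the leading genes were sought among 17310 genes, by Pearson correlation over the 12 arrays, which share 5 stages and so are a description only. For Cyp11a1 these were Bcl7c (r = 0.995), Rchy1, Fam126b, Lrrc6 and Tcl1b5 (r = 0.990). Bcl7c had stage means of 14.03 in pronuclear embryos, 15.69 at the 2-cell stage, 8.26 for morulae and, later, 6.47 at E10.5 and 6.40 at E16.5. For Hsd3b1 they were Ncoa1 (r = 0.988), Plpp5, Sbsn, S100a14 and Fosl2 (r = 0.959). Ncoa1, a coactivator of steroid receptors, had means of 10.61, 11.49, 9.06, 7.22 and 9.63 over the same stages. For Star they were Siah2 (r = 0.970), Rasa2, Cetn4, Myeov2 and Timm8b (r = 0.957). Ranked by Spearman correlation in place of Pearson, the 5 genes shared were 0 for Cyp11a1, 2 for Hsd3b1 and 3 for Star.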

How the data were processed

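RNA of whole mouse embryos was hybridised to 12 arrays. Per the file headers, the authors' deposited log2 signals are per gene and come from SST-RMA, a form of robust multi-array averaging that first transforms the signal space. The program named in the submitters' processing notes is the Transcriptome Analysis Console. The deposited table also has the authors' F-test p-value and FDR over the stages and a flag per stage, neither of which decided a call. The second deposited table of log2 values differed from the first in 0 probe sets. Of the 22206 probe sets, 21367 had 1 gene symbol, and the brightest of each gene was kept (211 left out), which left 21156 genes.

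The 5 stages were fitted in 1 limma model (3.58.1, R 4.3.3; lmFit and eBayes, two-sided, Benjamini-Hochberg over all 21156 genes, threshold 0.05) and the code was tested on simulated data. The spread is shared by pools and single embryos. Each SE of Cyp17a1 therefore includes its spread at E16.5 (SD 1.98, n = 3), also where E16.5 is not compared. As the labels do not say whether pools or embryos had separate mothers, the p-values reflect only how these samples vary, which may be partly technical. For arrays no counting depth applies; the number of arrays limits precision.

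The receptor range is the mean, over the arrays of a stage, of the 95th percentile of receptor genes. Named genes were all 8, fixed genes of the pathway lists, genes from among the 2 largest rises and falls of each list and comparison, and the 5 most similar profiles. Hsd3b5, Ptgfr and the cell markers named or plotted were chosen after their values were seen. The result of 1 gene that this rule names is not reported here. The 8 genes and all lists were chosen with earlier results of these data known. Of the listed pathway genes, Hsd17b8, Fdx2, Fdx1l and Acbd1 were not analysed here, which left 106, nor was the marker Insl3. Alternatives were a trended robust prior, array weights, a replicate block, quantile and loess normalization, centring on receptor genes or the upper quartile, removal of dim genes, every probe set by itself, fits of fewer stages, a stricter threshold, a minimum difference and leaving out each array. Promoters come from RefSeq (GRCm38.p6). Figures were drawn with matplotlib 3.10.9 in Python 3.11.15.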

Additional observations from a re-analysis of the deposited data

How the results depend on the processing

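For the 24 tested results of the 8 genes, 541 of 586 alternatives kept the direction and the side of the threshold. For the 16 differences with the 2-cell stage, which were not tested, 388 of 396 alternatives kept the direction. Many alternatives could not change a difference, so both counts overstate how far the directions were tried. These were a changed prior, filter or threshold, a fit of fewer stages, and leaving out an array of a stage not compared. The 8 that turned were Fdxr between 2-cell and pronuclear stage (-0.10 centred on receptor genes, -0.33 leaving out an array), Cyp19a1 there (-0.26 and -0.17 leaving out arrays), Cyp19a1 between morula and 2-cell stage (0.14 centred on the upper quartile, 0.34 and 0.31 leaving out arrays) and Cyp17a1 there (0.14 leaving out an array). With quantile normalization applied again the Hsd3b1 difference between the 2-cell and pronuclear stages was 1.96. Leaving out single arrays gave -7.80 to -6.70 for Cyp11a1 between morula and 2-cell stage, and 1 to 2 genes of the group higher in morulae (1 with all arrays, and 2 when centred on the upper quartile). Tested results that turned direction had not passed the test, and the cause was not tested for any that turned or moved. From morula to E10.5 the difference of Star was -0.0192 with the replicate block, -0.26 centred on the upper quartile and -0.13 to 0.14 leaving out single arrays, and that of Cyp19a1 was 0.13 with quantile normalization, 0.21 with loess, 0.32 centred on receptor genes and -0.54 to 0.23 leaving out arrays. From E10.5 to E16.5 the difference of Hsd17b1 was -0.0929 with array weights, -0.0152 with quantile normalization, -0.0705 with loess and -0.19 to 0.46 leaving out arrays. From pronuclear to morula, Hsd17b1 gave 0.21 (quantile), 0.35 (upper quartile) and -0.49 to 0.37 (single arrays), Cyp19a1 -0.041 (loess), -0.0889 (receptor genes) and -0.34 to 0.68 (single arrays), Fdx1 -0.10 (receptor genes) and -0.14 to 0.47 (single arrays), and Fdxr 0.0706 (upper quartile) and -0.73 to 0.0532 (single arrays).

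Centring on receptor genes moved the median difference of all genes from -0.16 to 0.32 between morula and E10.5 and from 0.15 to -0.11 between pronuclear and morula, and the upper quartile moved them to -0.43 and 0.56. The share of upward calls went from 48.6% to 67.5% and 38.7% in the first case and from 49.8% to 39.3% and 64.7% in the second. Arrays with the same replicate number showed little shared deviation (r from -0.11 to 0.05 over 21 pairs). In stages of 2 arrays the deviations mirror each other, so these pairs are not independent. The values cannot exclude that the numbers pair the samples. With the replicate block the genes called numbered 7179 from pronuclear to 2-cell, 8150 from 2-cell to morula, 10199 from morula to E10.5, 7655 from E10.5 to E16.5 and 9827 from pronuclear to morula. Fits of the early or late arrays alone give no value for morula against E10.5, and the filter on dim genes, which kept 15660 genes, removed Star and Cyp19a1. Groups of 2 and 3 arrays limit all of these comparisons, and signals within the receptor range have no reliable order.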
